A study of Mus musculus with 54 samples.

Results

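Inflammatory chemokines and cytokines in mouse kidney prepared for single-cell RNA sequencing were followed through 8 named genes: Cxcl1, Cxcl2, Cxcl10, Ccl2, Ccl3, Ccl4, Tnf and Il1b. They were taken by symbol from 32563 genes in the bulk RNA-seq tables and 19290 genes in the 10x tables. All 8 were present in the bulk tables. The study placed bulk RNA-seq, 10x single-cell and 10x single-nucleus libraries of adult kidney side by side, in 18 groups of 3 libraries, 54 libraries in all. Whole kidneys were turned into cell suspensions either by warm dissociation, with a commercial enzyme mix at 37 °C, or by cold dissociation, with a Bacillus licheniformis protease on ice.

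The warm and cold protocols were compared in untreated C57BL/6J males carrying AFAPIL.1DEL, aged 19 weeks and from 1 litter. Their suspensions were measured by bulk RNA-seq and by 10x, the latter fresh, after cryopreservation for 6 weeks and after methanol fixation for 3 months. Balb/c males aged 18 weeks, also littermates, gave cold-dissociated fresh cells, sorted nuclei and intact kidney for bulk RNA-seq. Wild type Balb/c females aged 15 weeks, former breeders, gave cold-dissociated cells (fresh, and cryopreserved for 2 weeks), nuclei by 3 workflows, and bulk RNA-seq of intact kidney and of the cold suspension. All these animals were untreated. The 3 strain and sex combinations were run as 3 batches, so batch, strain and sex cannot be told apart and every test below stayed within 1 of them. The 10x libraries used chemistry version 2 in C57BL/6J and Balb/c males and version 3 in Balb/c females. No group of C57BL/6J intact kidney was among the samples analysed here, so the warm libraries were read against the cold ones only.

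Chemokines are small secreted proteins that draw leukocytes along a gradient. Cxcl1 and Cxcl2 attract neutrophils, Cxcl10 is induced by interferons and NF-kB and attracts T cells, Ccl2 attracts monocytes, and Ccl3 and Ccl4 attract monocytes, macrophages and T cells. Tnf and Il1b are the proinflammatory cytokines of activated macrophages, monocytes and dendritic cells. All are known as fast NF-kB target genes with short-lived mRNA, and resident macrophages of the kidney are among the cells known to make them.

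Several members sit next to each other in the genome (GRCm38, the assembly also called mm10). Cxcl1 (chr5:90891241-90893115) and Cxcl2 (chr5:90903871-90905938) lie on the same strand with 10755 bases between them, and Cxcl10 (chr5:92346638-92348889) lies farther along chromosome 5. Ccl3 (chr11:83647844-83649355) and Ccl4 (chr11:83662584-83664683) are on opposite strands with 13228 bases between them, and Ccl2 (chr11:82035571-82037453) is on the same chromosome. Tnf is at chr17:35199381-35202007 and Il1b at chr2:129364570-129371139. RefSeq promoters (GRCm38.p6) were found for 6 of the 8, all except Ccl2 and Ccl4. An NF-kB motif (GGG, any 3 bases, then TTCC), on either strand in the 250 bases before the start, was found in 3 of these 6 (Cxcl1, Cxcl2 and Cxcl10) and in 4.65% of all 32851 promoters. The AP-1 motif TGANTCA occurred in 1 of the 6 (Cxcl10) and 6.75% of all, and TATAAA in 2 of the 6 (Tnf and Il1b) and 12.4% of all. No NF-kB match overlapped a match to another of these motifs in a member. The 3 promoters with an NF-kB match are shown because they belong to the CXC chemokines of the list, in 120 bases each, with every base of an NF-kB match in capitals and all other bases, the AP-1 match of Cxcl10 included, in lower case. They run 5′ to 3′ on the gene's own strand, Cxcl1 at chr5:90891125-90891244 (plus strand), Cxcl2 at chr5:90903779-90903898 (plus strand) and Cxcl10 at chr5:92348940-92349059 (minus strand). Starts are those of RefSeq, which differ from the GENCODE gene bounds above, so the ends of the Cxcl1 and Cxcl2 stretches reach past the GENCODE start.
Cxcl1: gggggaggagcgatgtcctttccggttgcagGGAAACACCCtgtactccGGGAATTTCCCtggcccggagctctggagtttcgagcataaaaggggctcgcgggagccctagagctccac
Cxcl2: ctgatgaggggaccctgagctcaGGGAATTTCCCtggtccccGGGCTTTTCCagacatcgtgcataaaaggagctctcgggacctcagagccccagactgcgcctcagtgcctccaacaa
Cxcl10: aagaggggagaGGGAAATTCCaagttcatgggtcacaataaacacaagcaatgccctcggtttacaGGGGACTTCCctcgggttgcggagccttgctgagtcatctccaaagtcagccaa
The first 2 share the same 11-letter match, and a match is a run of letters, not evidence that a factor was bound.

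Bulk libraries of C57BL/6J suspensions held 5969212 to 8184923 gene counts, those of Balb/c male intact kidney 2326998 to 7879117, and those of Balb/c females 21984996 to 31093949. The 10x libraries of C57BL/6J cells held 782 to 5972 barcodes and 983522 to 14064480 UMIs (unique molecular identifiers, 1 per captured transcript). Any 2 libraries of the series shared 0 to 101 barcode sequences, median 2, and for C57BL/6J at most 1.78% of the smaller library. The 10x tables carry a limit that bears on every low value below. Of 39 libraries, 36 listed genes at 0 where a library should also hold genes seen in a few barcodes: a median of 1495 genes were at 0 and only 124 in 1 to 9 barcodes. A 0 in those tables therefore stands for a gene seen in fewer than about 10 barcodes, so no fold change is given against a group listed at 0 throughout. Per the study's methods the 3 libraries of a group come from kidneys of different mice, though the labels do not name the animal of each.

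The first comparison asked whether warm dissociation changed these genes in the suspension as a whole, before any droplet step. Warm bulk libraries held more reads of every one of the 8 genes than cold ones. The genes were chosen with earlier results of these data known, and the share of all genes separated in this way is not given here. Among the neutrophil attractants, Cxcl1 had 1, 0 and 3 reads in the cold libraries and 38, 36 and 31 in the warm ones, or 0.2 ± 0.247 against 4.76 ± 0.548 CPM (counts scaled to equal library totals, mean ± SD, n = 3). Cxcl2 had 0, 1 and 0 reads cold and 29, 29 and 20 warm. The groups did not overlap for either gene, and both rose, Cxcl1 by a log2 fold change of 4.46 (SE 0.48, adjusted p = 0.000138) and Cxcl2 with an adjusted p of 0.000155. Because Cxcl2 rested on 1 cold read, its warm over cold ratio is better given as 72.2 with a 95% counting interval of 12.6 to 2890.

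The CC chemokines behaved alike in direction. Ccl4 had 3, 2 and 1 reads in the cold libraries and 56, 35 and 28 in the warm ones (0.287 ± 0.112 and 5.36 ± 1.78 CPM), and Ccl3 had 4, 1 and 0 against 28, 10 and 23 (0.219 ± 0.248 and 2.72 ± 1.14 CPM). Neither pair of groups overlapped. Ccl4 rose by 4.09 on the log2 scale (SE 0.45, adjusted p = 0.000141) and Ccl3 by 3.38 (SE 0.61, adjusted p = 0.00471). Ccl2 was read 1 time in each cold library and 5, 5 and 7 times in the warm ones, a ratio of 5.25 with a 95% counting interval of 1.52 to 28.0. It stayed under the count filter of the model, and the two-sided exact permutation test of its CPM gave p = 0.1, the smallest value that 3 against 3 libraries allow.

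Of the cytokines, Il1b was the member with the most reads, 26, 43 and 55 cold and 201, 161 and 181 warm (6.37 ± 2.87 and 24.5 ± 1.42 CPM). Tnf had 3, 5 and 4 reads cold and 35, 20 and 17 warm (0.613 ± 0.236 and 3.24 ± 1.17 CPM). Both were higher in all 3 warm libraries than in any cold one. Il1b rose by 1.97 on the log2 scale (SE 0.24, adjusted p = 0.000326) and Tnf by 2.41 (SE 0.42, adjusted p = 0.00409). Cxcl10, the interferon-induced chemokine, moved least, from 24, 12 and 20 reads to 62, 28 and 48 (2.71 ± 0.615 and 6.18 ± 2.01 CPM). Its change of 1.16 (SE 0.29) passed at an adjusted p of 0.0275, but not without cold library 1 or 2 or warm library 1 or 3, where the adjusted p was 0.0747 to 0.115. In all, 7 of the 8 members were called higher and 1 was not tested, where 8.68% of the 14102 genes tested were called in either direction and 5.42% were higher. Cxcl1, Ccl3, Ccl4 and Tnf were among the genes the study itself picked from these libraries, so their part of this count is not independent of it. Cxcl1, Cxcl2, Ccl3, Ccl4 and Tnf also entered the test only through the warm libraries. Their part of the count is thus not independent of the count filter either. In bulk RNA, more cells of a type and more RNA per cell cannot be told apart.

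**Figure D1:**
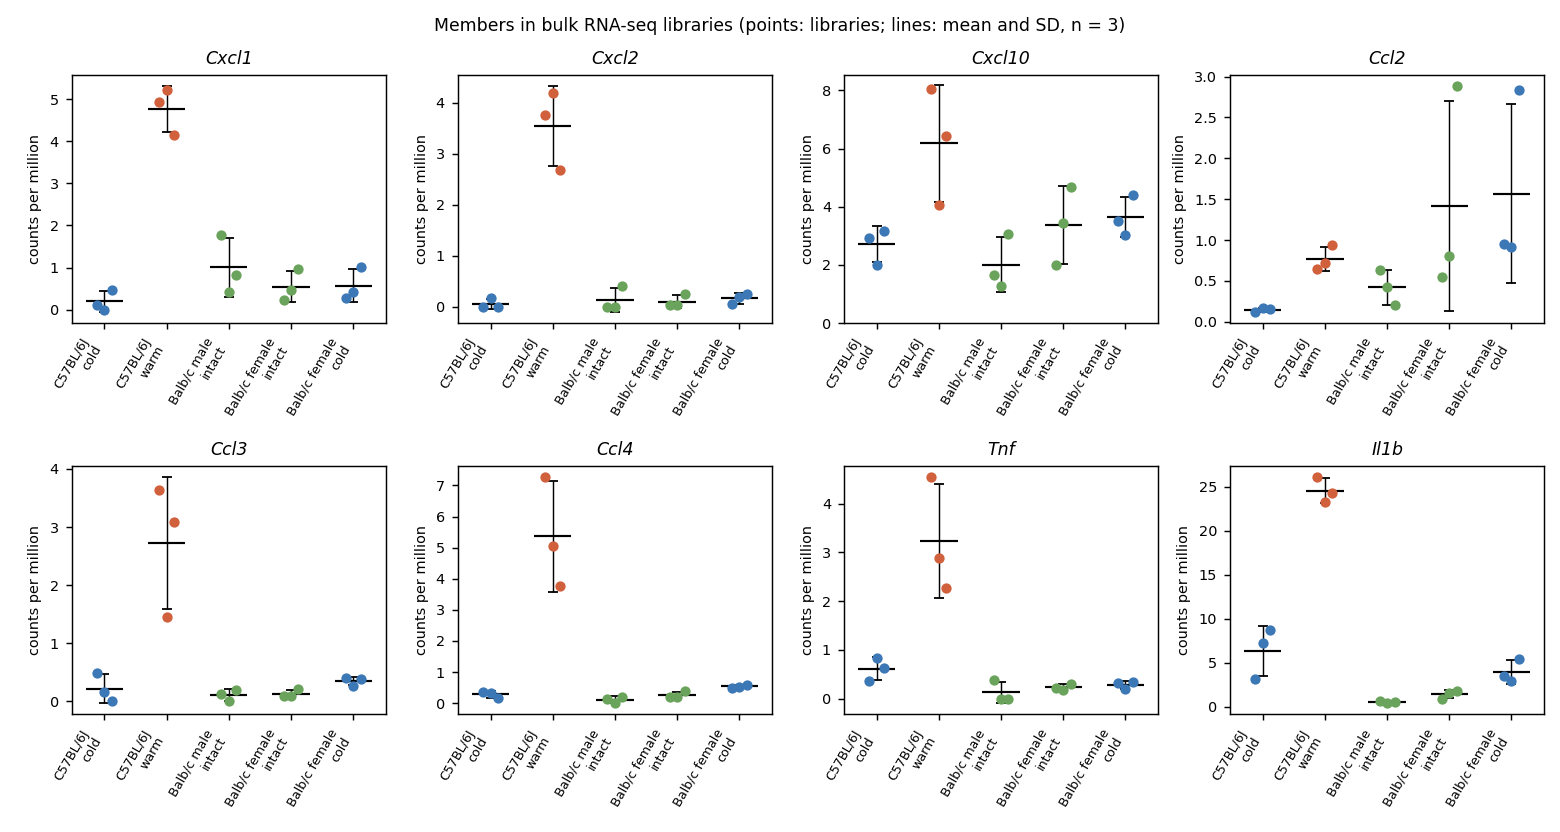
Each panel gives 1 member's CPM (counts of the gene scaled to equal library totals, linear axis from 0) in 5 groups of bulk libraries, with points for libraries and lines for the mean and SD (n = 3). The 3 warm C57BL/6J points lie above the 3 cold ones for each of the 8 genes, while intact and cold Balb/c female points lie close together except for Il1b and, in part, Ccl3 and Ccl4. No share of all genes separated in this way is given.

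The plot of bulk CPM by group shows how unevenly the members moved. Markers of the immune cells did not rise with them. Of the marker genes tested in bulk warm against cold libraries, 0 were called higher in the lists of macrophages, monocytes, dendritic cells, neutrophils, T cells and B cells, and 2 of 10 macrophage markers, 4 of 8 monocyte markers and 6 of 7 B cell markers were lower. The summed level of macrophage markers was 568 to 644 CPM warm and 610 to 645 CPM cold. The part of immune cell numbers in the levels of the members was not tested. Markers of the descending loop of Henle, an epithelial segment that returns below among the Cxcl1-holding cells, were higher for 5 of 6 genes, at 111 to 152 CPM against 35.1 to 54.3 CPM, and their part in the rise of Cxcl1 and Cxcl10 was not tested.

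Genes of the same pathway moved unequally too. Among inhibitors and feedback regulators of NF-kB and of cytokine signalling, 8 of 14 tested were higher and none lower (median log2 fold change 0.97, against -0.01 for all genes), led by Socs3 (4.49), Zfp36, which destabilises Tnf and chemokine mRNA (3.05), and Tnfaip3 (2.50). Of other NF-kB targets 4 of 10 were higher, among them Ptgs2, the inducible cyclooxygenase, at 2.31 and Cd83 at 1.69. Among NF-kB subunits 2 of 5 were higher, Rel at 0.88 and Nfkb2 at 0.40. Calls in the other ligand families went both ways. Of 5 other CXC, XC and CX3C chemokines tested 1 was higher (Cx3cl1, 0.39) and 1 lower (Ppbp, -1.96), of 5 other CC chemokines 0 were called, and of 7 other cytokines 1 was lower (Il16, -1.20). Receptors split, with 3 of 13 higher (Cxcr4 1.59, Ccr7 1.10, Il1r1 0.76) and 3 lower (Ccr2 -1.06, Cx3cr1 -0.90, Tnfrsf1b -0.52). Of 10 interferon-induced genes tested, 1 was higher (Irf1, 1.63) and 1 lower (Rsad2, -0.46).

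Whether the cold protocol by itself left a trace on the members could be asked in Balb/c females, where intact kidney and cold suspension were both sequenced in bulk. Il1b had 29, 48 and 52 reads in the intact kidneys and 76, 77 and 130 in the suspensions, without overlap. It rose by 1.45 on the log2 scale (SE 0.29, adjusted p = 0.00713), the 1 call among the 5 members tested, where 20% of 16538 genes were called. Ccl4 went from 6, 6 and 11 to 11, 14 and 14 reads, a log2 fold change of 1.06 (SE 0.34) with an adjusted p of 0.0569, which became 0.0311 without intact library 3.

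Cxcl1, Cxcl10 and Ccl2 gave no call. Cxcl1 had 7, 14 and 28 reads in intact kidney and 6, 11 and 24 in the suspension (log2 fold change 0.05), Cxcl10 had 62, 103 and 136 against 77, 80 and 104 (0.11), and Ccl2 had 17, 24 and 84 against 21, 24 and 67 (0.15). The groups overlapped for all 3. Cxcl2, Ccl3 and Tnf were under the count filter, with at most 7, 9 and 9 reads in a library. Of these Ccl3 had 3, 3 and 6 reads in intact kidney and 9, 7 and 9 in the suspensions, without overlap and with no test. Of macrophage markers 6 of 10 were higher and 1 lower in the suspensions, at a summed 1138 to 1234 CPM against 1167 to 1237 CPM. Neutrophil markers were higher for 3 of 5 and B cell markers for 6, and their part in the Il1b difference was not tested. In Balb/c male intact kidney, which had no suspension in bulk, no member exceeded 15 reads in a library.

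The same warm against cold question was then put to the fresh 10x libraries, summed over all barcodes. Ccl4 had 30, 144 and 133 UMIs in the cold libraries and 773, 1392 and 789 in the warm ones, or 5.65, 17.9 and 17.1 CPM against 147, 99.0 and 125. Ccl3 had 0, 18 and 30 UMIs cold and 434, 478 and 352 warm, and Il1b had 13, 41 and 40 against 264, 479 and 221. No group overlapped. The rises were 3.13 (SE 0.32, adjusted p = 0.000612) for Ccl4, 4.63 (SE 0.52, adjusted p = 0.000839) for Ccl3 and 3.16 (SE 0.24, adjusted p = 0.000108) for Il1b on the log2 scale.

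Cxcl2 was listed at 0 in all 3 cold libraries and at 91, 278 and 142 UMIs in the warm ones (adjusted p = 5.77e-05), and Tnf at 0 against 20, 37 and 19 UMIs (adjusted p = 0.0110). The Tnf call was lost without warm library 1 or 3, at an adjusted p of 0.0659 and 0.0628, and with same-numbered libraries paired in the model, called the replicate block below (0.0512). With each listed 0 of a member entered as 9 UMIs, 1 for each barcode that the 10-cell filter could have hidden, Cxcl2 was still called (3.96, adjusted p = 2.05e-05) and Tnf was not (1.26, adjusted p = 0.106). A hidden barcode can hold more than 1 UMI, as Cxcl2 had 389 UMIs in 52 warm fresh macrophage-like barcodes. The same entry in each library also understates the spread. The Cxcl2 call with 9 UMIs therefore cannot show that the difference outlasts the filter. Cxcl10 had 0, 29 and 15 UMIs cold and 61, 107 and 32 warm, a rise of 1.98 (SE 0.57, adjusted p = 0.0485) that was lost without any 1 of cold libraries 2 and 3 or warm libraries 1, 2 and 3, and with the replicate block (0.0819). Ccl2 was listed at 0, 0 and 13 against 0, 42 and 55 UMIs, and its difference did not pass (2.68, SE 1.37, adjusted p = 0.213). Cxcl1 had 12, 77 and 0 UMIs warm and 0 throughout cold, and stayed under the count filter. So 6 members were called, all higher, where 14.9% of 12061 genes were called and 7.86% were higher. Cxcl2 and Tnf entered the test only through the warm libraries. Ccl3 and Cxcl10, each listed at 0 in a cold library, passed the count filter only with the warm ones. The part of these members in this count is thus not independent of the filter. The summed macrophage markers were 1319 to 1363 CPM in the warm and 1775 to 1917 CPM in the cold libraries, with 5 of 10 called lower and 0 higher.

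**Figure D2:**
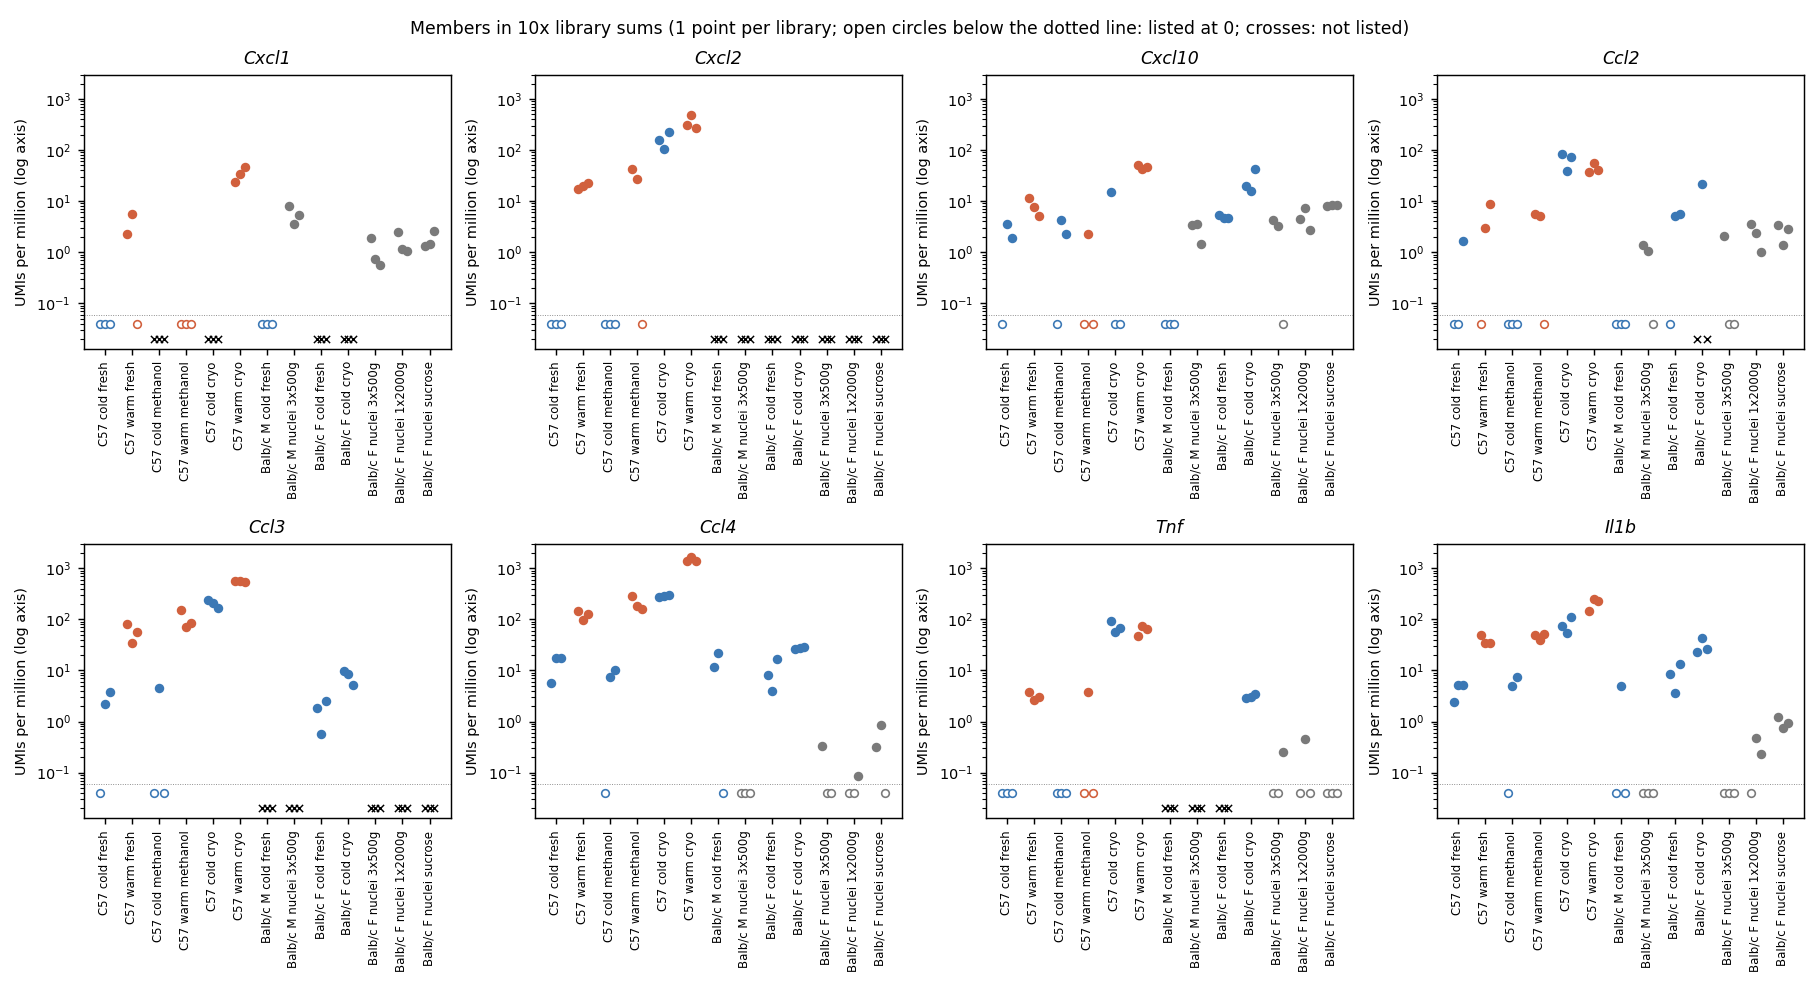
Each panel gives 1 member's UMIs scaled to equal library totals (log axis) in the 13 groups of summed 10x libraries, 1 point per library (blue cold, orange warm, grey nuclei), with open circles under the dotted line for a listed 0 and crosses for a gene not listed. In C57BL/6J cells the warm fresh points stand above the cold fresh ones for Ccl3, Ccl4, Il1b, Cxcl2 and Tnf, and the cryopreserved cold points stand above the fresh cold ones for the same genes and Ccl2.

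To ask which cells held the transcripts, the barcodes were clustered on genes that exclude the 8 members and the pathway and stress lists, and clusters were named, as -like, from marker genes. The 47282 C57BL/6J barcodes gave 34 clusters in 16 named classes, with 99 barcodes left unnamed. In the warm fresh libraries the 6 immune classes held 96.0% of Ccl3 and Ccl4 UMIs, 96.7% of Il1b, 98.7% of Tnf, 93.3% of Cxcl2 and 88.7% of Ccl2, but 11.2% of Cxcl1 and 22.5% of Cxcl10. The macrophage-like class alone held 73.2% of Ccl4 (2163 UMIs), 76.8% of Ccl3 (971 UMIs), 76.1% of Cxcl2 (389 UMIs), 65.8% of Tnf (50 UMIs), 69.1% of Ccl2 (67 UMIs) and 56.7% of Il1b (547 UMIs). The class numbered 592 warm fresh barcodes, against 7974 in the proximal tubule-like class.

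The rest was split along different lines for each gene. T cell-like barcodes held 14.4% of Ccl4 and 7.0% of Ccl3, and the T cell cluster also raised 2 markers of NK cells, so those 2 lineages were not separated. Dendritic cell-like barcodes held 32.4% of Il1b, 17.1% of Tnf and 9.7% of Ccl3, though only 45 warm fresh barcodes carried that name. Monocyte-like barcodes held 9.2% of Cxcl2. Cxcl1 was found mostly outside the immune classes, with 30.3% in proximal tubule-like, 29.2% in descending loop of Henle-like and 18% in endothelial-like barcodes. These shares rest on 89 UMIs, unevenly spread over the warm fresh libraries (0 to 5.47 CPM). The proximal tubule-like share was 27 UMIs in 17 of 7974 barcodes, and the part of free RNA in it was not tested. Cxcl10 was spread the most evenly, with 25.0% in descending loop of Henle-like, 19% in proximal tubule-like, 16.5% in endothelial-like and 12.0% in macrophage-like barcodes.

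**Figure D3:**
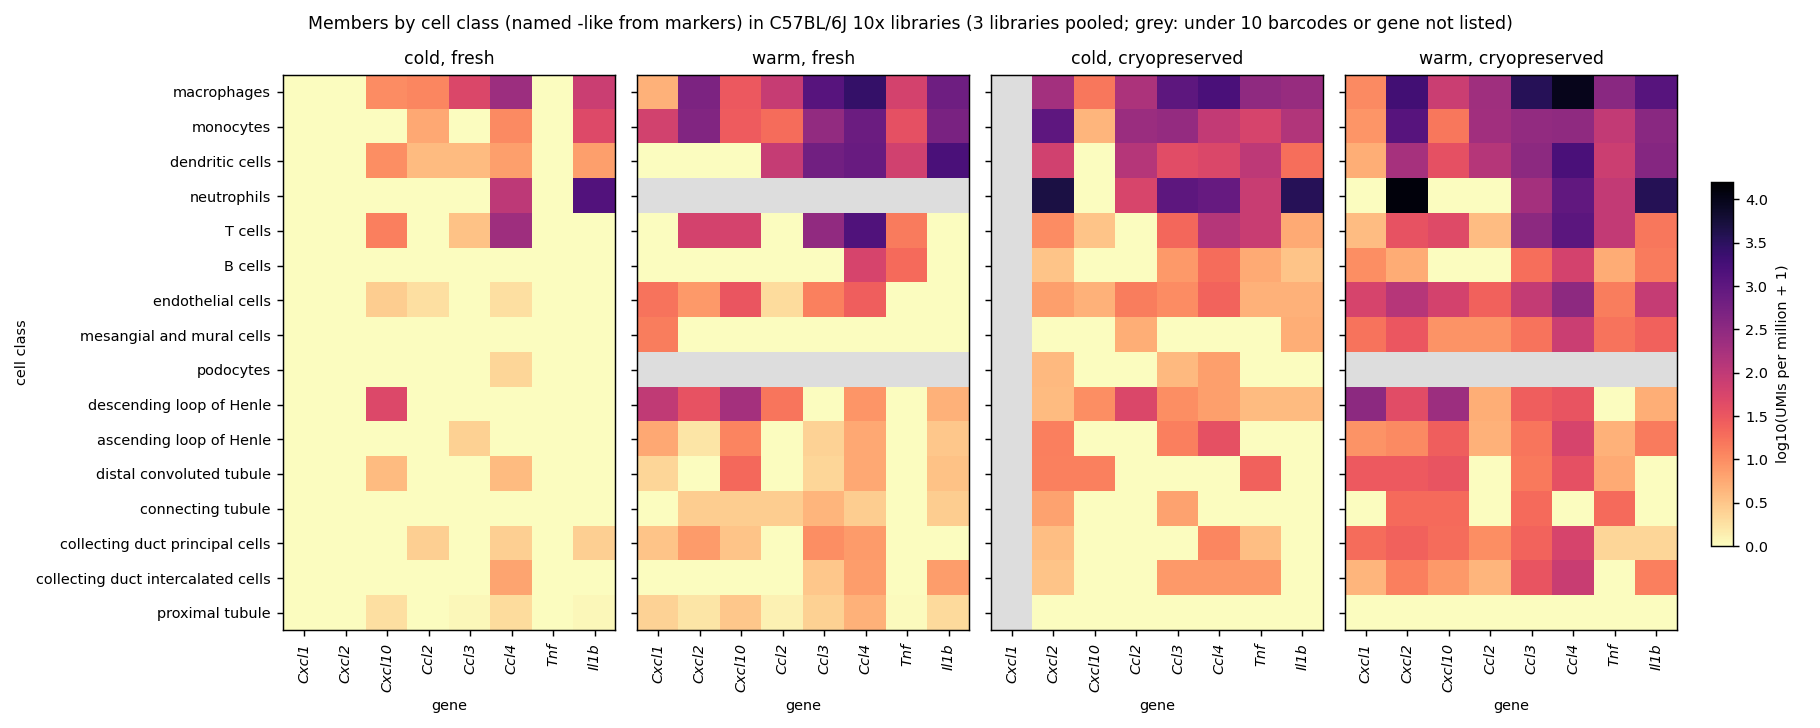
Colour gives log10(CPM + 1) of each member (columns) in each class (rows, named -like from markers), over the 3 pooled libraries of the cold fresh, warm fresh, cold cryopreserved and warm cryopreserved C57BL/6J groups, with grey for classes of under 10 barcodes or genes not listed. Ccl3, Ccl4, Il1b, Cxcl2 and Tnf are darkest in the immune rows of the warm fresh and both cryopreserved panels, and Cxcl1 in the descending loop of Henle row of the warm ones.

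Levels within the macrophage-like class were compared over libraries. Ccl4 stood at 124, 180 and 303 CPM in the cold fresh libraries and at 3721, 2003 and 3420 CPM in the warm ones. Ccl3 stood at 0, 52.2 and 71.1 CPM cold and 2079, 792 and 1436 CPM warm, and Il1b at 70.9, 75.1 and 81.7 against 976, 533 and 769 CPM. All 3 genes were separated without overlap, by 3.76 (SE 0.32, adjusted p = 3.57e-06), 4.78 (SE 0.50, adjusted p = 2.74e-05) and 3.20 (SE 0.26, adjusted p = 1.89e-06) on the log2 scale. Cxcl2 was at 454, 478 and 516 CPM and Tnf at 84.8, 50.5 and 69.9 CPM in the warm libraries, both listed at 0 in the cold ones, and both were called. The Tnf call in the library sums was lost when each listed 0 was entered as a count of UMIs, as given above. In the macrophage-like class both genes entered the test only through the warm libraries, so these calls describe where the genes were found and no more. Ccl3, listed at 0 in a cold library, also passed the count filter there only with the warm libraries. Ccl2 was at 0, 37.3 and 269 CPM warm and 0, 0 and 23.7 CPM cold, and was under the count filter. In this class 3.60% of 2308 genes were called. The class was 2 clusters, and they were not alike: of the warm fresh barcodes, 215 in the first held 2144 Ccl4 UMIs (4061 CPM) and 377 in the second held 19 (68.1 CPM). Cold fresh libraries had 370 and 288 barcodes in the same 2 clusters, with Ccl4 at 262 and 127 CPM. In these pooled values, which have no test, Ccl4 was thus higher warm than cold in the first cluster and not in the second.

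Per barcode, Ccl4 was seen in 24.3% of warm and 14.1% of cold macrophage-like barcodes, at median depths of 806 and 1192.5 UMIs. Thinned to 500 UMIs per barcode, the shares were 18.9% and 6.54%. In proximal tubule-like barcodes, a cell type that should lack the gene, the warm share was 0.878% (median 1444.5 UMIs), or 0.0543% after thinning. At 500 UMIs, any of the 8 genes was seen in 29.8% of warm and 11.8% of cold macrophage-like barcodes and in 0.312% of warm proximal tubule-like ones. For single genes after thinning, Ccl3 reached 15.9% against 1.96%, Il1b 12.4% against 3.76%, Cxcl2 5.24% and Tnf 1.12% in the warm macrophage-like class.

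**Figure D4:**
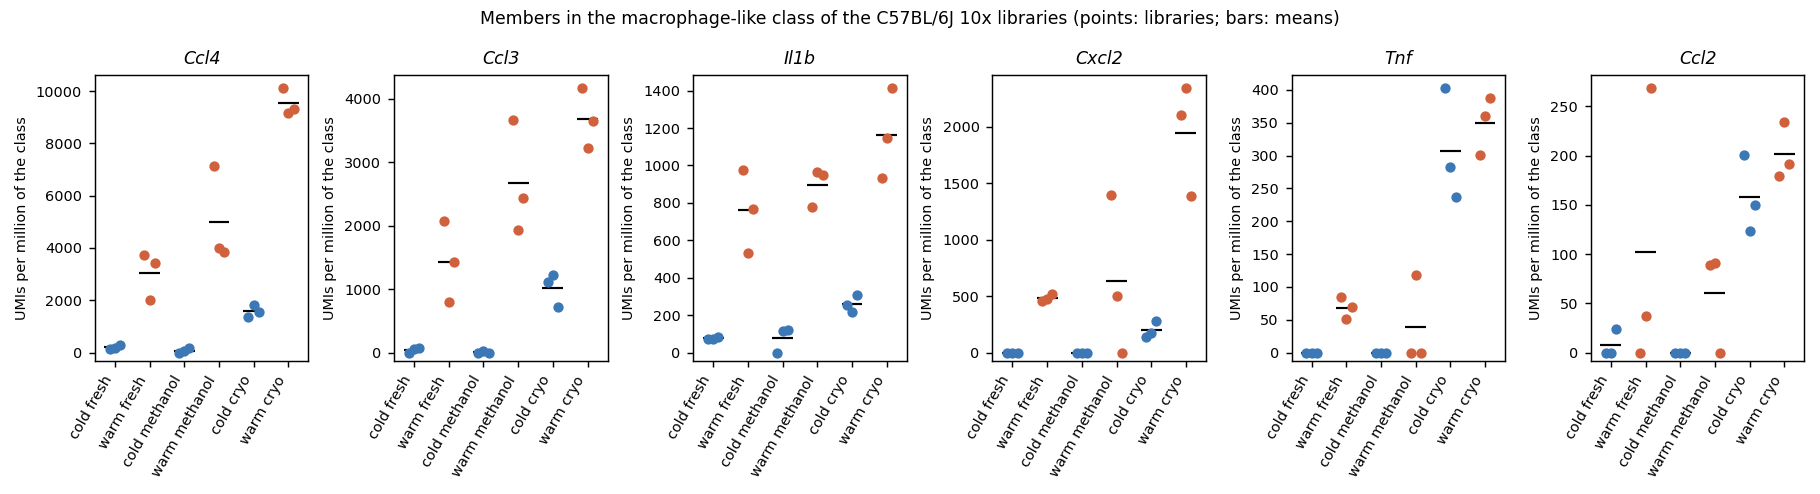
CPM of 6 members within the macrophage-like class (linear axis from 0) in the 6 groups of C57BL/6J 10x libraries, with points for libraries and bars for means (n = 3, blue cold, orange warm). Ccl4 is at 124 to 303 CPM in cold fresh, 2003 to 3721 CPM in warm fresh and 9179 to 10127 CPM in warm cryopreserved libraries.

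Dendritic cell-like, T cell-like and proximal tubule-like classes also gave calls in the fresh comparison. In dendritic cell-like barcodes Il1b stood at 0, 0 and 14.7 CPM cold and 2176, 2103 and 701 CPM warm, Ccl4 at 0, 14.9 and 0 against 344, 1280 and 445 CPM, and Ccl3 at 0, 7.44 and 0 against 945, 400 and 728 CPM. All 3 were called, in a fit that left out 1 warm library with fewer than 10 such barcodes, where 6.30% of 1190 genes were called. In T cell-like barcodes Ccl4 stood at 73.4, 455 and 60.4 CPM cold and 1554, 1431 and 1165 CPM warm, a rise of 2.65 (adjusted p = 0.0456), and Ccl3 at 0, 0 and 6.04 against 579, 234 and 115 CPM (adjusted p = 0.00379), with 4.07% of 1451 genes called. Cold library 2 stood apart from the other cold ones for Ccl4.

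Proximal tubule-like barcodes had 0.839, 0.827 and 1.26 CPM of Ccl4 cold and 4.57, 3.71 and 3.03 CPM warm, a rise of 1.78 (adjusted p = 0.0251) in a class where 6.61% of genes were called. DESeq2 gave this pair no adjusted p. These levels were far below those of the macrophage-like class, and the thinned share of barcodes, 0.0543% warm and 0.0864% cold, did not follow the CPM. The part of free RNA from immune cells in that value was not tested. Of the 104 pairs of a member and a class, only 11 could be tested, and all 11 were called, all higher. Pairs enter such a test mostly through the group where the gene is high, so the count describes where the members were found and no more. The called share of all genes ranged from 0.277% to 6.61% over the 13 classes.

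Where Cxcl1 was found, its counts were too low for a test in fresh libraries. In descending loop of Henle-like barcodes it stood at 32.0, 162 and 0 CPM in the warm fresh libraries, and 8.33% of 84 barcodes held it, at a median depth of 2352.5 UMIs. In endothelial-like barcodes it stood at 9.72, 25.4 and 0 CPM, in 2.34% of 513 barcodes (median 1788 UMIs). It was seen in 0.338% of macrophage-like barcodes (median 806 UMIs) and 0.213% of proximal tubule-like ones (median 1444.5 UMIs). Thinned to 500 UMIs, which left out 10, 41, 58 and 601 barcodes of the 4 classes, 0 of 74, 4 of 472, 1 of 534 and 2 of 7373 barcodes held it, too few to order the classes at equal depth. Cxcl10 in descending loop of Henle-like barcodes stood at 0, 87.2 and 34.3 CPM cold and 48.0, 290 and 75.2 CPM warm, with overlapping groups.

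Cells of the same suspensions were also stored, which asks whether the warm against cold difference survives storage. After cryopreservation, Ccl4 had 507, 793 and 552 UMIs in the cold and 2211, 3118 and 2848 in the warm libraries, or 279, 289 and 300 against 1391, 1634 and 1412 CPM. Ccl3 was at 236, 206 and 170 against 552, 552 and 531 CPM, and Il1b at 75.4, 53.2 and 113 against 147, 248 and 233 CPM. The groups did not overlap, and the rises were 2.44 (SE 0.12, adjusted p = 0.000347), 1.52 (SE 0.13, adjusted p = 0.00117) and 1.47 (SE 0.29, adjusted p = 0.0284). Cxcl10 was listed at 14.9, 0 and 0 CPM cold and 50.3, 43.0 and 45.6 CPM warm, a rise of 3.49 (SE 0.80, adjusted p = 0.0428). The last 2 calls were not stable. Il1b lost its call with the replicate block (adjusted p = 0.0784) and without any 1 library except cold library 3 (0.0571 to 0.135), and Cxcl10 with the block (0.111) and without any 1 library except cold library 1 (0.0754 to 0.158). The groups overlapped for Tnf and Ccl2, and neither these nor Cxcl2 were called. Cxcl2 was at 155, 106 and 230 CPM cold and 305, 494 and 269 CPM warm (1.22, SE 0.32, adjusted p = 0.0642), Tnf at 93.6, 56.9 and 66.9 against 46.6, 73.9 and 64.5 CPM (-0.12, adjusted p = 0.782), and Ccl2 at 84.8, 38.3 and 72.3 against 37.7, 56.6 and 40.7 CPM (-0.41, adjusted p = 0.448). Markers of monocytes were at 259 to 748 CPM warm against 879 to 1254 CPM cold (0 of 7 higher, 1 lower), of neutrophils at 0 to 432 against 493 to 1343 CPM (0 of 4 called) and of macrophages at 3211 to 5103 against 5070 to 6780 CPM (0 of 10 higher, 1 lower). Monocyte-like barcodes numbered 77 warm and 240 cold and neutrophil-like ones 17 and 56, and their part in these library sums was not tested. Cxcl1 was not listed in the cold libraries and reached 23.3, 34.6 and 45.6 CPM in the warm ones. The call was made for 4 members, all higher, where 6.67% of 10086 genes were called and 4.00% were higher, and for 2 members (Ccl3 and Ccl4) with the replicate block. Cxcl10, listed at 0 in part of the cold group, passed the count filter only with the warm libraries.

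Within the macrophage-like class of cryopreserved libraries, Ccl4 stood at 1368, 1822 and 1562 CPM cold and 10127, 9179 and 9316 CPM warm. Called rises were 2.72 for Ccl4, 1.98 for Ccl3, 2.32 for Il1b, 2.47 for Cxcl10 and 3.44 for Cxcl2, the last from 136, 173 and 281 CPM to 2105, 2347 and 1392 CPM, with 11% of genes called in the class. Ccl2 (0.51) and Tnf (0.33) were not called there. The 2 clusters of the class held 520 and 62 cold and 360 and 133 warm barcodes, and within the first Ccl4 was at 1663 and 10544 CPM, pooled over libraries. Endothelial-like barcodes, at 6.91% called, rose in Cxcl2 (4.52), Cxcl10 (4.10), Ccl3 (3.50) and Ccl4 (4.07), and Cxcl10 was called in descending loop of Henle-like barcodes, at 2.63% called, from 40.2, 0 and 0 CPM to 152, 194 and 281 CPM. The part of free RNA from immune cells in the endothelial-like values was not tested. Dendritic cell-like barcodes, at 6.11% called, rose in Ccl3 (3.01), Ccl4 (5.03) and Il1b (4.41), T cell-like ones, at 11%, in Ccl3 (4.02) and Ccl4 (3.10), and monocyte-like ones, in a fit without 1 warm library of fewer than 10 such barcodes and at 2.08%, in Ccl4 (1.59) and Il1b (1.41). With the replicate block the Ccl4 call in monocyte-like barcodes was lost (1.28, adjusted p = 0.0574), and Cxcl2 was called in dendritic cell-like ones (1.47, adjusted p = 0.0452). In warm cryopreserved libraries 41.0% of Cxcl1 UMIs lay in descending loop of Henle-like and 37.9% in endothelial-like barcodes, at 152, 229 and 485 CPM and at 45.2, 68.7 and 55.6 CPM. After thinning to 500 UMIs, Cxcl1 was seen in 14% of warm cryopreserved descending loop of Henle-like barcodes, 1.37% of endothelial-like and 0.438% of macrophage-like ones, against 23%, 5.87% and 1.01% before thinning at median depths of 1964.5, 1251 and 1389 UMIs. In all, 27 of 104 member and class pairs could be tested and 17 were called, with 0% to 16.3% of all genes called per class. These pairs too entered the test mostly through the group where the gene is high.

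Methanol-fixed libraries were thinner, and 3 members passed the filter. Ccl4 was at 0, 7.49 and 10.4 CPM cold and 285, 179 and 161 CPM warm, Ccl3 at 0, 4.62 and 0 against 153, 70.3 and 84.4 CPM, and Il1b at 0, 4.94 and 7.40 against 49.4, 39.9 and 50.8 CPM. All were called without overlap, by 4.87 (SE 0.46, adjusted p = 0.000592), 5.77 (SE 0.64, adjusted p = 0.00173) and 3.21 (SE 0.45, adjusted p = 0.00666), where 1.98% of 9996 genes were called and 1.15% were higher. Each of these members was listed at 0 in at least 1 cold library and passed the count filter only with the warm libraries. Their calls are thus not independent of that filter. DESeq2 called only Ccl4 of the 3, with an adjusted p of 0.0543 for Ccl3 and 0.0623 for Il1b. Cxcl2 reached 82, 103 and 0 UMIs warm against 0 throughout, and Cxcl1 was listed at 0 in the warm libraries. Ccl2 had 11, 20 and 0 and Tnf 0, 15 and 0 UMIs warm against 0 throughout, and Cxcl10 had 0, 9 and 0 UMIs warm and 0, 27 and 15 cold. In the macrophage-like class, at 6.13% called, the rises were 5.71 for Ccl4, 7.81 for Ccl3 and 3.19 for Il1b. Proximal tubule-like barcodes, at 2.38% called, rose in Ccl4 (4.35) and Ccl3 (5.16), the second lost with the replicate block (adjusted p = 0.114), and T cell-like ones, at 4.51%, in Ccl4 (4.06) and Ccl3 (3.63), in a fit without 1 warm library of fewer than 10 such barcodes. DESeq2 called the 3 macrophage-like pairs and neither T cell-like one (adjusted p = 0.0554 for Ccl4 and 0.88 for Ccl3), and gave the proximal tubule-like pairs no adjusted p. The part of free RNA in the proximal tubule-like values was not tested. Of 72 pairs only 7 could be tested and all 7 were called, with 0.398% to 6.41% of genes called per class. Pairs enter such a test mostly through the group where the gene is high, so this count describes where the members were found.

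**Figure D5:**
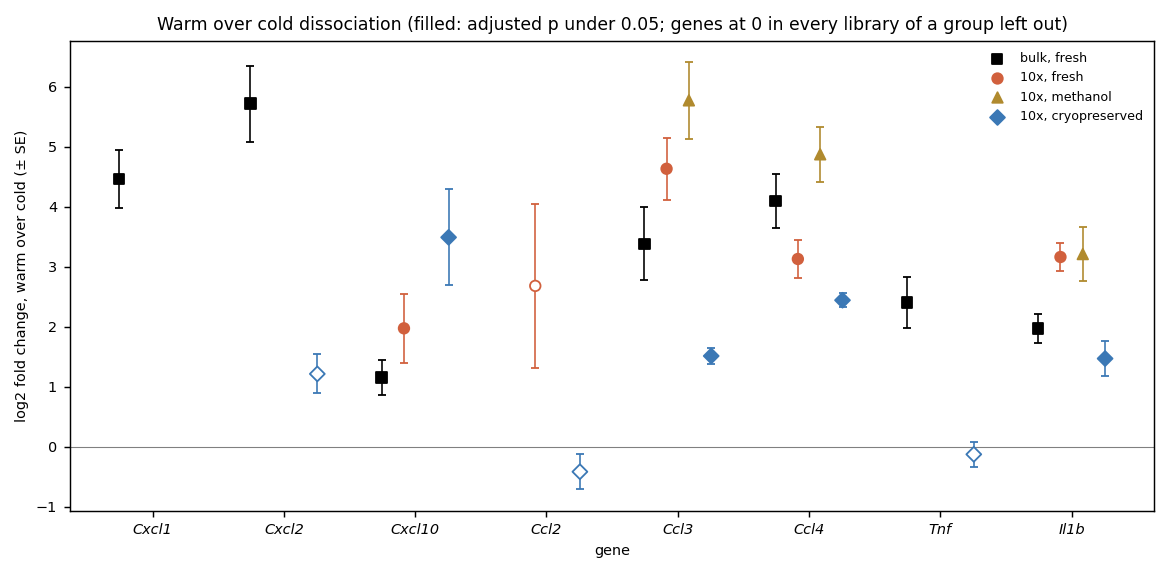
Log2 fold change of warm over cold dissociation with its SE for each member, in bulk RNA-seq (squares) and in summed 10x libraries that were fresh (circles), methanol-fixed (triangles) or cryopreserved (diamonds), filled where called and left out where a group was listed at 0 throughout or the gene was not tested. Ccl3, Ccl4 and Il1b lie above 0 and are filled in all 4 settings (Il1b after cryopreservation not with the replicate block, Ccl3 and Il1b after methanol not by DESeq2), while Tnf (-0.12) and Ccl2 (-0.41) lie just below 0 and open after cryopreservation.

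The size of the warm over cold difference itself changed with cryopreservation for some members. The plot of fold changes shows it for Ccl3, 4.63 fresh and 1.52 cryopreserved, and the interaction term was -3.18 (SE 0.59, adjusted p = 0.0118) in library sums and -2.74 (adjusted p = 0.00361) in the macrophage-like class. In the sums 6.32% of 11749 genes were called and 4.25% had a negative term, and in the class 1.25% of 3372 were called and 0.771% had a negative term. For Il1b the term was -1.75 (SE 0.45, adjusted p = 0.0421) in the sums, but the call was lost with the replicate block (0.0589) and in 10 fits that left out 1 library (0.0545 to 0.09). Cxcl2 and Tnf were called in both sets too, but their fresh effect is set by cold libraries listed at 0 throughout, so no size is given from them. With each listed 0 entered as 9 UMIs the term in the sums was -2.79 for Cxcl2 (adjusted p = 0.0146) and -1.42 for Tnf (adjusted p = 0.0482), values that rest on the number entered and, being the same in each library, understate the spread. For Ccl4 the interaction was -0.75 (adjusted p = 0.248), for Ccl2 -3.11 (adjusted p = 0.157) and for Cxcl10 1.46 (adjusted p = 0.545). For methanol-fixed against fresh libraries the same edgeR test called 0 of 7 members in the sums, 1 of them (Ccl4, 1.74, adjusted p = 0.378) with an unadjusted p under 0.05, and 0 of 6 in the macrophage-like class, 2 of them (Ccl3, 3.06, and Ccl4, 1.95, both with an adjusted p of 0.788) with an unadjusted p under 0.05. Across all genes 0% were called by that test in either set.

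Cryopreserved and fresh aliquots of the same suspension were then compared directly. These comparisons share the fresh libraries with those above. In cold suspensions 6 of the members were higher after cryopreservation, all but Cxcl1 (not listed) and Cxcl10 (under the count filter). Cxcl2 stood at 155, 106 and 230 CPM against 0 throughout, Tnf at 93.6, 56.9 and 66.9 against 0 throughout, and Ccl2 at 84.8, 38.3 and 72.3 against 0, 0 and 1.67 CPM. Ccl2 rose by 6.18 (SE 0.69), Ccl3 by 6.03 (SE 0.50), Ccl4 by 3.91 (SE 0.36) and Il1b by 3.72 (SE 0.37), and all 6 members tested were called, where 50.7% of 11392 genes were called and 21.8% were higher. Cxcl2 and Tnf entered that test only through the cryopreserved libraries. Ccl2 and Ccl3, listed at 0 in part of the fresh group, passed the count filter only with those libraries. The part of these members in the count is thus not independent of the filter. The make-up of the libraries moved with them. All 10 macrophage markers were higher, at a summed 5070 to 6780 CPM against 1775 to 1917 CPM, neutrophil markers were at 499 to 1352 CPM against 60.1 to 96.1 CPM, and all 12 proximal tubule markers were lower, at 193 to 297 CPM against 10457 to 13798 CPM.

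The comparison was therefore repeated within classes. In the macrophage-like class, cold cryopreserved against cold fresh, Ccl3 rose by 4.26, Ccl2 by 3.74, Ccl4 by 2.78 and Il1b by 1.62, and Cxcl2 and Tnf were called against 0 throughout, Tnf from 0 to 403, 283 and 236 CPM, with 16.8% of genes called in the class. The 2 clusters of the class were held unequally, 370 and 288 barcodes in cold fresh against 520 and 62 in cold cryopreserved libraries, and the second held less of these genes. Within the first, pooled over libraries, Ccl4 was at 262 CPM fresh and 1663 CPM cryopreserved, Ccl3 at 59 and 1077 CPM, Ccl2 at 11.5 and 163 CPM and Il1b at 98.3 and 260 CPM. In monocyte-like barcodes, at 8.30% called, Ccl2 was called from 0, 0 and 17.7 CPM to 368, 121 and 231 CPM, and Cxcl2 from 0 throughout to 949, 691 and 1346 CPM. Ccl3 was called there too, Ccl2 and Tnf were called in dendritic cell-like barcodes (9.54% called) and Tnf in T cell-like ones (10.6% called). In all these classes Cxcl2 and Tnf, and in the monocyte-like one Ccl3, were at 0 throughout in the fresh group. Those pairs, the Ccl2 pairs and Ccl3 in the macrophage-like class passed the count filter only with the cryopreserved group. Their calls thus describe where the genes were found. T cell-like barcodes did not rise in Ccl4 (-0.76, not called). Neutrophil-like barcodes, the targets of Cxcl2 among leukocytes, held Cxcl2 at 4350, 4977 and 4878 CPM and Il1b at 2962, 3143 and 4065 CPM in cold cryopreserved libraries, but with only 56 barcodes there and 13 in fresh ones they could not be tested. Monocyte-like barcodes held 57.3% of the Cxcl2 UMIs of these libraries, macrophage-like ones 20% and neutrophil-like ones 17.6%, unlike the warm fresh libraries where the macrophage-like class held the most. Of 112 pairs 14 could be tested and 12 were called, with 0.665% to 16.9% of genes called per class.

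In warm suspensions all 8 members were higher after cryopreservation, from 2.00 for Il1b to 3.91 for Tnf on the log2 scale, where 59.8% of 10778 genes were called and 25.8% were higher. At least Cxcl1 and Ccl2, each listed at 0 in a fresh library, passed the count filter only with the cryopreserved libraries. Their part of this count is not independent of that filter. Macrophage markers were higher for 9 of 9 tested, at 3211 to 5103 CPM against 1319 to 1363 CPM, T cell markers for 7 of 8 and endothelial markers for 10 of 10, and all 12 proximal tubule markers were lower. With proximal tubule-like barcodes left out, the difference of Il1b was 0.52 (adjusted p = 0.138) and that of Ccl2 1.70 (adjusted p = 0.0964), neither called. Within the macrophage-like class, at 22.4% called, Tnf rose by 2.47, Cxcl2 by 2.04, Ccl4 by 1.71, Ccl3 by 1.44, Cxcl10 by 1.30 and Il1b by 0.70. Here the 2 clusters held 215 and 377 fresh against 360 and 133 cryopreserved barcodes. Within the first, pooled over libraries and with no test, Il1b was at 1012 CPM fresh and 1328 CPM cryopreserved, Cxcl2 at 733 and 2104 CPM and Tnf at 94.7 and 384 CPM. Endothelial-like barcodes, at 8.59% called, rose in Cxcl2 (4.33), Ccl4 (3.90), Ccl3 (3.15) and Cxcl1 (2.05), and the part of free RNA in these values was not tested. Dendritic cell-like barcodes, in a fit without 1 fresh library and at 5.18% called, rose in Cxcl2 from 0 throughout but went the other way for Il1b, which decreased by 1.91 (adjusted p = 0.00537), and with the replicate block also for Ccl3 (-1.01, adjusted p = 0.0385). Of 96 pairs 21 could be tested, of which 11 were called higher and 1 lower, with 0.349% to 22.4% of genes called per class.

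Methanol-fixed and fresh aliquots were compared in the same way, again sharing the fresh libraries. In cold suspensions 0 of 4 members tested were called by edgeR, with Ccl4 at -1.02 (adjusted p = 0.258), Ccl3 at -0.41, Cxcl10 at 0.27 and Il1b at 0.10, where 27.9% of 11910 genes were called. None of the 4 had an unadjusted p under 0.05, and DESeq2 also called 0. With aliquots of the same suspension paired, Ccl4 was called lower (-1.15, adjusted p = 0.0252), as it was in the macrophage-like class (-1.54, adjusted p = 0.00066, against -1.39 and 0.0642 unpaired, with 26.4% of genes called in the class). In warm suspensions Ccl4 was called higher (0.72, SE 0.20, adjusted p = 0.0421), and with pairing Ccl3 as well (0.83, adjusted p = 0.000935), where 17.3% of 10826 genes were called. Cxcl2 (0.33), Il1b (0.17), Ccl2 (-0.08), Tnf (-0.95) and Cxcl10 (-2.84, adjusted p = 0.088) were not called, and Cxcl1 was under the filter. By class, proximal tubule-like barcodes were higher in Ccl3 (3.16) and Ccl4 (2.85) and T cell-like ones, in a fit without 1 fixed library, in Ccl4 (1.60), with 12.2% and 1.21% of genes called in those classes. With pairing the first was lost (3.03, adjusted p = 0.0712), and Ccl3 was called in macrophage-like (0.74) and T cell-like barcodes (1.47). The 2 clusters of the macrophage-like class held 215 and 377 barcodes in warm fresh and 93 and 79 in warm methanol-fixed libraries, and within the first Ccl3 was at 1830 and 3197 CPM, pooled and with no test.

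Balb/c female cold suspensions, cryopreserved for 2 weeks, allowed a like comparison in another batch. Per the study's methods it also differed in 10x chemistry and in the centrifugation speed used around storage. Cxcl10 stood at 5.38, 4.74 and 4.57 CPM fresh and 19.5, 15.4 and 43.3 CPM cryopreserved. Il1b stood at 8.32, 3.66 and 13.5 CPM against 22.8, 43.8 and 25.8 CPM, Ccl4 at 8.12, 3.91 and 16.7 CPM against 25.7, 28.0 and 29.4 CPM, and Ccl3 at 1.81, 0.574 and 2.53 CPM against 9.82, 8.33 and 5.07 CPM. The groups did not overlap, and all 4 members listed in every library were called higher, by 2.01 (adjusted p = 0.000964), 1.55 (0.0111), 1.23 (0.0292) and 1.99 (0.00537) on the log2 scale, where 58.0% of 11947 genes were called. Without proximal tubule-like barcodes Cxcl10 was called and not Ccl3 (1.22, adjusted p = 0.0502), Il1b (0.87) or Ccl4 (0.49). Macrophage markers were higher for 9 of 10, at 3035 to 3661 CPM against 1623 to 1974 CPM. Within the macrophage-like class Ccl3 rose by 1.40 (adjusted p = 0.0186), from 56.0, 30.8 and 58.5 CPM to 133, 117 and 62.5 CPM. It was the 1 call among 7 pairs tested, of 96 pairs in all, with 3.23% of genes called in that class and 0.16% to 11.3% over the classes.

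Fresh female libraries, prepared only in the cold, also show which cells held the members under that protocol. Ccl2 was held by descending loop of Henle-like barcodes, 197 of 231 UMIs, at 0, 287 and 213 CPM. These UMIs lay in 11 of 299 such barcodes (3.68%), against 9 of 379 (2.37%) and 0, 14 and 29.3 CPM in the macrophage-like class. Cxcl10 was at 100, 82.7 and 29.6 CPM in descending loop of Henle-like and 87.1, 42.1 and 50.6 CPM in macrophage-like barcodes. Il1b and Ccl4 were held mostly by the macrophage-like class, at 295, 250 and 418 CPM and at 373, 188 and 351 CPM. A further 208 Ccl4 UMIs lay in barcodes left unnamed, among them a cluster led by T and NK cell genes (Cd3g, Nkg7, Ncr1, Xcl1).

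Nuclear libraries held Il1b, Ccl4 and Tnf at low counts, while Cxcl1, Cxcl10 and Ccl2 reached higher ones in some libraries, with overlapping ranges. Nuclei carry unspliced RNA and hold other shares of cell types than suspensions do, so RNA per cell and cell make-up cannot be told apart. In female nuclei Il1b was listed at 0 in the libraries washed 3 times at 500 g, and Ccl4 at 10, 0 and 0 UMIs, and both were called lower than in fresh cells, with Cxcl10 (-1.99, adjusted p = 0.0451), where 84.8% of 13762 genes were called. Il1b and Ccl4 entered that test only through the cells, not through the nuclei. Cxcl1 had 58, 22 and 15 UMIs in these nuclei, and in male nuclei 74, 27 and 41 against 0 in male cells, a call where 81.3% of 14027 genes were called. Male cell libraries held 1362810 to 2573720 UMIs in total and male nuclei 7629138 to 9390078. Cxcl1 was at 3.52 to 7.88 CPM in male nuclei, a level that the 10-cell filter could list at 0 in the smaller cell libraries. It entered that test only through the nuclei, so the call cannot tell a lower level in male cells from lower depth and the filter. Across the other workflows Cxcl1 was at 85, 36 and 38 UMIs after 1 wash at 2000 g and 38, 44 and 69 after the sucrose step, Cxcl10 at 154, 231 and 95 and at 227, 252 and 224, and Ccl2 at 123, 74 and 35 and at 96, 41 and 75. Il1b, Ccl4 and Tnf never exceeded 34, 26 and 14 UMIs in a nuclear library, and Cxcl2 and Ccl3 were not listed in any. Between workflows, 0 of 3 members were called by edgeR for 1 wash at 2000 g against 3 washes at 500 g, with 0 at an unadjusted p under 0.05 and 0 by DESeq2 (34.9% of genes called), and Il1b for sucrose, 34, 22 and 24 UMIs against 0 throughout (45.3% called). Il1b entered the sucrose test only through the sucrose libraries. At counts this near the 10-cell filter, that call cannot tell a difference in level from the filter.

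The genes whose levels followed the members most closely are given as description. Over the 18 summed C57BL/6J libraries, which share protocol groups, Ccl4 was most like Il1b (Pearson r 0.987) and Egr1 (0.966), and Ccl3 most like Junb (0.978), Dusp1 (0.978) and Atf3 (0.976), all immediate-early genes. Cxcl2 was most like Rhob (0.968), Dusp5 (0.962) and Nfkbid (0.959), Tnf most like Hist4h4 (0.978), Ccl2 most like Ier5 (0.936) and Cxcl10 most like Dyrk2 (0.919). Over 83 sums by class and library of the fresh samples, which share libraries and depth, Ccl3 and Ccl4 were most like each other (0.833), Il1b most like Pilra (0.840) and Adgre1 (0.823), and Rgs1 was near Ccl3 (0.818), Ccl4 (0.814) and Tnf (0.769). The macrophage marker genes among these are part of what the class names rest on. Cxcl1 was not listed in every library, so no such value was computed for it.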

How the data were processed

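Bulk RNA-seq and 10x tables of gene counts were used as deposited. Per the labels and the study's methods, the authors made the bulk counts with STAR 2.6.1a and featureCounts (strandedness not given in the sources used here) from rRNA-depleted RNA (C57BL/6J and Balb/c males) or poly(A) RNA (Balb/c females), and the 10x counts with Cell Ranger 2.1.1 on mm10, with EmptyDrops, keeping barcodes with at least 200 genes and, per library, genes in at least 10 cells. Samples were grouped by the GEO labels, and 0 columns of per-sample values were left unmapped.

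The 8 members, the pathway lists and the marker lists were chosen with earlier results of these data known. Counts were tested across all genes with edgeR 4.0.16 (TMM, filterByExpr, quasi-likelihood, Benjamini-Hochberg, called at an adjusted p under 0.05) in R 4.3.3, on bulk libraries, on UMIs summed per library and on UMIs summed per class and library with at least 10 barcodes. Fits used the groups compared only, and the interaction used all 4 groups. Barcodes were clustered with scanpy 1.11.5 and leidenalg 0.10.2, without the members, and doublets were marked (2.95% of C57BL/6J and 4.14% of Balb/c female barcodes) but kept, their removal being an alternative. All 8 members entered every comparison, those not tested being unlisted in some library or under the filter, with counts over whole lists, at most 3 called genes a direction of each list in the bulk comparison, and the 3 genes most correlated with each member in log2(CPM + 1). Scripts were tested on simulated data.

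Column headers of the C57BL/6J libraries give stored aliquots the same suspension name as the fresh one, and the methods say that they were split from it, so these numbers pair stored with fresh C57BL/6J libraries by source. The Balb/c female headers share no such name, and no block was fitted there. The fits reported are unpaired, and the paired fit is an alternative. For warm against cold libraries a shared animal is not stated, though same-numbered headers share a stem and differ in its last letter (BG20C and BG20H for library 1). Same-numbered libraries deviated together (every correlation over 0.1) in 3 of 7 C57BL/6J comparisons, all with methanol. Values with this replicate block are given where they change a call. DESeq2 1.42.0, edgeR's exact test, other scaling and filters, and leaving out libraries or barcodes were the alternatives. Intervals cover counting error only.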

Additional observations from a re-analysis of the deposited data

Results flagged for a closer look

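The warm over cold effect differed between cryopreserved and fresh libraries for the following members, by a test of the difference itself (the log2 fold change after cryopreservation minus that in fresh libraries, edgeR). In library sums it was -3.18 for Ccl3 (SE 0.59, adjusted p = 0.0118) and -1.75 for Il1b (SE 0.45, adjusted p = 0.0421), the second lost with the replicate block (0.0589) and in 10 fits without 1 library (0.0545 to 0.09). In the macrophage-like class it was -2.74 for Ccl3 (SE 0.51, adjusted p = 0.00361). The cold fresh libraries listed Ccl3 at 0 in 1 of 3, and with that 0 entered as 9 UMIs the value in the sums was -2.92 (adjusted p = 0.0058), which rests on the number entered. The make-up of the libraries moved with storage, and its part was not tested.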

How the results depend on the processing

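Counts are of members, or of member and class pairs, called. Of 2748 alternative values for 196 single tests, 2573 kept direction and side of the threshold, 132 lost the call, 43 gained it and 0 reversed. With a log2 fold change of at least 2 in addition, the female intact against suspension count went from 1 to 0, cryopreserved warm against cold from 4 to 2, warm methanol against fresh from 1 to 0 and female cryopreserved against fresh from 4 to 1. Without the low-count filter, warm methanol gave 0, male nuclei 3 in place of 1, the macrophage-like interaction 5 in place of 3, and the classes 20 in place of 11 (fresh), 11 in place of 7 (methanol), 20 in place of 12 (cold cryopreserved), 25 in place of 12 (warm cryopreserved), 3 in place of 0 (cold methanol) and 3 in place of 1 (female). DESeq2 gave 1 of 3 for methanol warm against cold, 2 for warm methanol, and 11 of 17 and 3 of 7 for the cryopreserved and methanol classes, 2 of the last having no adjusted p. It also gave none for Ccl4 in the fresh proximal tubule-like class. The exact test gave 2 for the female suspension and 2 for warm methanol, and RLE scaling 1 for cold methanol classes. Leaving out proximal tubule-like barcodes gave 2 for warm methanol and 1 for female cryopreserved. The following were chosen after seeing the data. Listed zeros of members taken as 9 UMIs moved no count of C57BL/6J library sums or interactions by over 1.5 times, and Tnf lost its call in fresh warm against cold libraries. Such fits rest on the number entered and, as it is the same in each library, understate the spread. Unlisted genes taken as 0 gave 5 in place of 3 for female nuclei. With the replicate block the cryopreserved warm against cold count was 2 (Cxcl10 and Il1b lost), cold methanol 1, warm methanol 2 and cold methanol classes 1; in fresh warm against cold libraries Cxcl10 (adjusted p = 0.0819) and Tnf (0.0512) were lost, as was Il1b in the interaction (0.0589). Other calls lost or gained with it are given in the report.

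Leaving out 1 library at a time gave 6 to 7 calls for bulk warm against cold, 1 to 3 for the female suspension, 4 to 6 for fresh, 2 to 3 for cryopreserved and 2 to 4 for methanol warm against cold, 6 to 6 for cold and 8 to 8 for warm cryopreserved against fresh, 0 to 0 for cold and 0 to 3 for warm methanol, 3 to 4 for female cryopreserved, 1 to 3 for male and 2 to 4 for female nuclei, 0 to 1 for 2000 g and 1 to 4 for sucrose nuclei, and 3 to 4 for both cryopreservation interactions (Il1b lost in 10 of these fits, adjusted p = 0.0545 to 0.09). In classes it gave 8 to 11 (fresh), 14 to 18 (cryopreserved), 6 to 8 (methanol), 11 to 14 (cold cryopreserved), 6 to 14 (warm cryopreserved, 6 without warm cryopreserved library 2), 0 to 2 (cold methanol), 2 to 4 (warm methanol) and 0 to 2 (female). The authors' filter lists a gene in fewer than about 10 barcodes of a 10x library at 0, and Ccl2 in C57BL/6J bulk libraries and Cxcl1 in warm against cold 10x libraries were not tested for low or unlisted counts.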

Other observations

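In the fresh 10x libraries, where 7.86% of all genes were higher warm than cold, the lists around the members held the following calls by edgeR's quasi-likelihood test. Of 14 inhibitors and feedback regulators of NF-kB and cytokine signalling tested, 7 were higher in warm than in cold libraries and 0 lower (median log2 fold change 0.68, against -0.03 for all genes), and of 7 other NF-kB targets 4 were higher. Of 6 other CXC, XC and CX3C chemokines 0 were called, with Cxcl16 at 47.2 CPM warm and 50.0 CPM cold. Of 5 other CC chemokines 1 was lower, the macrophage chemokine Ccl6 (-1.04, adjusted p = 0.000839), while Ccl5, a T cell chemokine, stood at 90.7 and 91.5 CPM. Macrophage markers were lower for 5 of 10 in the same comparison, at a summed 1319 to 1363 CPM warm and 1775 to 1917 CPM cold, and their part in the Ccl6 difference was not tested. Il15 was higher (0.76, adjusted p = 0.0171), Il16 (-1.10) and Tgfb1 (-0.41) were lower, and of 13 receptors 3 were lower, among them Ccr2 (-1.17), the receptor for Ccl2. After cryopreservation 6 of the 14 inhibitors and feedback regulators were higher in warm libraries and 0 lower, where 4.00% of all genes were higher.

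Between cold cryopreserved and cold fresh libraries, 11 of 14 inhibitors and feedback regulators (median 2.36), 5 of 5 NF-kB subunits, 6 of 7 other NF-kB targets (1 lower), 10 of 12 receptors, 2 of 7 other cytokines, 8 of 9 interferon-induced genes, 3 of 5 other CC chemokines and 4 of 6 other CXC, XC and CX3C chemokines were higher, where 21.8% of all genes were higher. Macrophage markers were higher for 10 of 10 in the same comparison, with a summed level of 5070 to 6780 CPM against 1775 to 1917 CPM, B cell markers for 8 of 8 and T cell markers for 7 of 8, while proximal tubule markers were lower for 12 of 12. Their part in these counts was not tested.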
